A study of Mus musculus with 6 samples.

Results

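Imprinted genes are expressed mainly from the maternal or the paternal allele, and 42 of them were followed here through the open chromatin of adult neural stem cell cultures. The members were taken by name, as a list of well-known mouse imprinted genes, with a rule that reads no measured value, though the list was drawn up with earlier results of these data known. They comprise 35 protein-coding and 7 noncoding genes of 31868 genes with the same annotation classes, and they were sorted into 17 clusters by the control region that governs them. Peaks were read over each gene body widened by 10 kb. These windows held 261 of the 120143 regions obtained by merging the peaks of all libraries.

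Imprinting rests on DNA methylation that is laid down in the egg or the sperm at imprint control regions and kept on one parental allele in body cells. On the methylated allele the KRAB zinc finger protein ZFP57 binds its hexamer and recruits TRIM28 and SETDB1, and on the unmethylated allele the same sequence can act as a promoter, often of a long noncoding RNA, or can bind the insulator protein CTCF. Several imprinted genes, among them Dlk1, Igf2 and Cdkn1c, are known for roles in adult neural stem cells. The assay used here reads open DNA from both alleles together, so neither methylation nor the parental origin of a peak was measured.

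The cultures were neural stem cells of the subependymal zone of mice of 10 weeks, and their accessible DNA had been read by ATAC-seq, which inserts sequencing adapters with a transposase wherever chromatin is open. All of them, both states alike, lacked the Sox2 enhancer SRR2 after CRISPR-Cas9 editing (Srr2 del/del). Proliferating cultures (PROLIF, 3 libraries, replicates 1, 2 and 4) were kept with mitogens for 2 days in vitro, for which the series' design text gives 3 days. Early differentiating cultures (DIFF, 3 libraries, replicates 1, 2 and 4) had 2 days followed by 1 day without mitogens, in 2% serum. Every comparison is between the states within this mutant, since libraries of wild-type cultures were not used here. A bulk library cannot tell fewer cells with an open site from less opening in each cell.

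Each library is a list of peaks called by the authors, with 60006 to 82741 peaks in PROLIF and 70728 to 88039 in DIFF. PROLIF replicate 4 was the shortest list and DIFF replicate 4 the longest. The weakest folds kept, read as percentile 1 of each list, ranged from 2.18 in DIFF replicate 4 to 2.66 in PROLIF replicate 4, so the reach of the lists differed, and a missing peak means a signal under that reach. Peaks in the member windows numbered 193, 159 and 138 in PROLIF and 164, 171 and 197 in DIFF, or 2.24 to 2.42 per 1000 peaks. The Sox2 start site had a peak in all 6 libraries, and a window 3 to 5 kb downstream of it, on the side of the deleted enhancer, had none in 5 of them. All 8 neural stem and progenitor markers had a promoter peak in all 6 libraries, against 2 of 5 microglial, 1 of 4 endothelial and 2 of 6 choroid plexus and fibroblast markers.

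The imprint control regions are given first, because they govern each cluster. A window was placed on each of 17 of them from general knowledge of its position relative to a start site, usually within 1 kb, since the deposited lists do not mark control regions. Gnas has 2 of these windows and the germline control region of Zdbf2 was not placed. The following stretches run 100 bp to either side of the highest-ranked summit in 6 of these windows, from RefSeq GRCm38.p6, written 5′ to 3′ on the strand of the gene. Capitals mark the ZFP57 hexamer TGCCGC, the CTCF core GGNGGCAG and the AP-1 heptamer TGANTCA on either strand. The first 4 hold the hexamer, the fifth had folds of at least 11.7 in every library and holds none of the 3 motifs, and the last is from a window whose values separated the states.
H19 control region, chr7:142580256-142580456, minus strand: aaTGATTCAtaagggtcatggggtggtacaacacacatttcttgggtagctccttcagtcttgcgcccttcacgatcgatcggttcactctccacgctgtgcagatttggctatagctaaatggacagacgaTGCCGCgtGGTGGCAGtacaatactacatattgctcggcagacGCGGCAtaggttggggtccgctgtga
Peg13 promoter, chr15:72809958-72810158, minus strand: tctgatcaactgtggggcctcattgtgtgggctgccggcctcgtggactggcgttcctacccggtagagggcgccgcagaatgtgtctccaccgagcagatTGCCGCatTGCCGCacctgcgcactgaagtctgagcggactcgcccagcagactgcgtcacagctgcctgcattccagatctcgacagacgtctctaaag
Gnas exon 1A, chr2:174327354-174327554, plus strand: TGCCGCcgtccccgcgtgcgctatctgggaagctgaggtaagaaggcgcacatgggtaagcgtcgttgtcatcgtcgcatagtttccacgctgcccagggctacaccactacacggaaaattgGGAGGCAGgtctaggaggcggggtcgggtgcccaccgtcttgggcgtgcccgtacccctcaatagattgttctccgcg
Snrpn promoter, chr7:60004204-60004404, minus strand: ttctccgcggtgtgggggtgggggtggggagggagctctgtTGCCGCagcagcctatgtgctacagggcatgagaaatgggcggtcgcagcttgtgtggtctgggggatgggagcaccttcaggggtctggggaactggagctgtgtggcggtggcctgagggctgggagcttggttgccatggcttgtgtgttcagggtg
Kcnq1ot1 promoter, chr7:143296531-143296731, minus strand: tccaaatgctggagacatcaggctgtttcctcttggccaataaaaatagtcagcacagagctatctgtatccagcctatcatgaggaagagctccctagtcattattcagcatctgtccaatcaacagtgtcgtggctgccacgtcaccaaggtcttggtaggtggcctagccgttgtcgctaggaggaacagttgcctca
Rasgrf1 upstream region, chr9:89874572-89874772, plus strand: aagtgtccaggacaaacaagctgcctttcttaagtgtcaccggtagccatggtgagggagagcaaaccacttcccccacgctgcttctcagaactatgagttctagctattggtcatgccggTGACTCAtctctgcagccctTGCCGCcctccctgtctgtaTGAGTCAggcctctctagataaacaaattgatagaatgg

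In the H19 stretch the ZFP57 hexamer lies next to the CTCF core, 2 bases apart, and a second hexamer follows on the opposite strand. This pairing of both matches is why the stretch is shown first. Only the core of the CTCF motif was searched, so whether the 2 matches are separate sites was not tested. The hexamer was present in 9 of the 16 control summits (56.2%), against 5.27% of all region summits and 9.51% of summits in regions with a peak in all 6 libraries. Control summits were rich in CpG, with a median of 11.5 per stretch of that length against 2 over all regions, and among regions in all 6 libraries with 11 or more CpG the hexamer was present in 21.1%. The CTCF core was found in 2 of the 16 (12.5%, against 10% of all regions), at H19 and at Gnas exon 1A. The YY1 sequence GCCATNTT was found in 0 of the 16, against 3.93% of all regions. Over the whole windows, which are longer than these stretches and differ in width, the hexamer was found in 16, the CTCF core in 5 and the YY1 sequence in 7 of the 16, Peg3 among the last. These whole-window counts have no share over windows of like width and CpG content beside them, so no enrichment is read from them. A match shows only that these letters are in the window.

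Of the 17 control windows, 15 had a peak in all 6 libraries, a count with no share over like windows of the genome beside it. The 15 were 13 of the 14 windows methylated in the egg and 2 of the 3 methylated in the sperm. Kcnq1ot1, the start of the antisense RNA that silences its cluster, had fold enrichments over local background of 13.5, 13.2 and 12.6 in PROLIF and 11.7, 11.9 and 12.9 in DIFF. The start of Airn, the corresponding RNA of the Igf2r cluster, had folds of 11.4, 8 and 8.37 in PROLIF and 6.29, 10.5 and 8.7 in DIFF. The internal start of Plagl1, a zinc finger transcription factor, had folds of 13.3, 9.69 and 9.63 in PROLIF and 8.63, 11.1 and 10.5 in DIFF. The states overlapped at all 3 of these starts.

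Lower folds were measured at Gnas exon 1A, from 3.32 to 3.78, and at the H19 control region, from 3.52 to 5.53. The start of Nespas, the RNA antisense to Gnas, was higher, from 7.51 to 11.8. At Snrpn the folds ranged from 6.16 to 8.38, at Peg13 from 5.75 to 8.1, at Impact from 6.69 to 9.35 and at the internal start of Grb10 from 7.85 to 9.93. Mest and the internal start of Inpp5f lay between, at 4.79 to 6.98 and 4.06 to 5.58. Each of these windows had a peak in every library of both states, and the states overlapped in each.

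**Figure D1:**
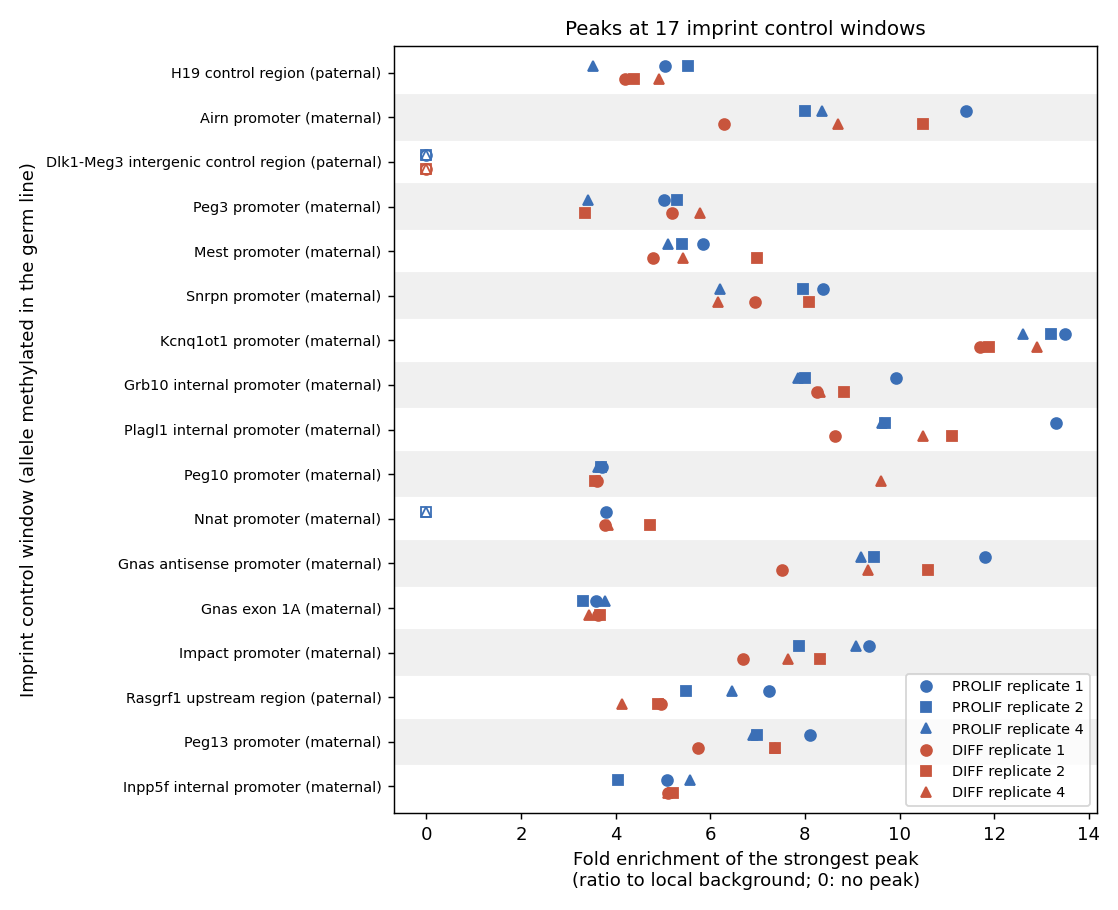
Fold enrichment of the strongest peak (horizontal axis, ratio to local background) in 17 imprint control windows (vertical axis, with the allele methylated in the germ line in brackets), for 3 PROLIF libraries in blue and 3 DIFF libraries in red, with a marker shape per replicate and open markers at 0 for no peak. Kcnq1ot1 sits between 11.7 and 13.5, the Dlk1-Meg3 intergenic window is at 0 in every library, and Nnat is at 0 in PROLIF replicates 2 and 4.

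By the rank of the strongest peak, the states did not overlap in 2 of the 17 windows, 1 higher in DIFF and 1 in PROLIF. Of genes with a promoter peak, 23% and 5.65% did so in these directions, though promoters are placed and sized unlike these windows. At the start of Nnat, which encodes the proteolipid neuronatin, the percentile of the strongest peak (its rank by −log10 p within its own list, where 100 is the strongest) was 25.2, 0 and 0 in PROLIF, with 0 for no peak, and 39.6, 45.4 and 47.8 in DIFF. Upstream of Rasgrf1, which encodes a Ras exchange factor, it was 65.1, 55 and 62.6 in PROLIF and 47.6, 38.9 and 44.8 in DIFF. By percentile neither pair of states overlapped (two-sided exact permutation test, p = 0.1 for each). This is the smallest p that 3 against 3 can give, unadjusted over the 17 windows. Any 3 against 3 without overlap gives it, so here and below it restates the non-overlap and adds no support. By fold the Nnat states overlapped, at 3.79, 0 and 0 in PROLIF and 3.77, 4.73 and 3.83 in DIFF. A region just beyond the Nnat window (chr2:157561238-157561482) had a peak in all 6 libraries, with overlapping states. Within the Rasgrf1 window, a peak 35108 to 35589 bp upstream of the start had folds of 7.25, 5.25 and 6.47 in PROLIF, was not called in DIFF replicates 1 and 2 and had a fold of 2.57 in DIFF replicate 4. The stretch of this peak printed above holds 2 AP-1 heptamers. The values of the window come from different peaks, however, since those of DIFF replicates 1 and 4 belong to a peak 28529 to 29545 bp upstream, which ranked 47.6 and 44.8 there, 18.9 in DIFF replicate 2, and 21.2 and 23.7 in PROLIF replicates 1 and 4. In PROLIF replicate 2 it was joined to a neighbouring peak. The order at this nearer peak was thus mixed, and the window does not have one direction throughout.

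The window placed for the Dlk1-Meg3 intergenic control region, from 16 to 10 kb upstream of the Meg3 start, had no peak in any library, whereas the H19 control region, also methylated in the sperm, had peaks 2100 to 3953 bp upstream of the H19 start in all 6. At Peg10 the folds at the start itself ranged from 3.49 to 3.71, and the fold of 9.61 of DIFF replicate 4 belongs to a wider peak whose summit lies 1906 bp downstream. At Peg3 a peak over the start had folds from 2.98 to 3.95, beside a broad stronger one in the first intron.

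**Figure D2:**
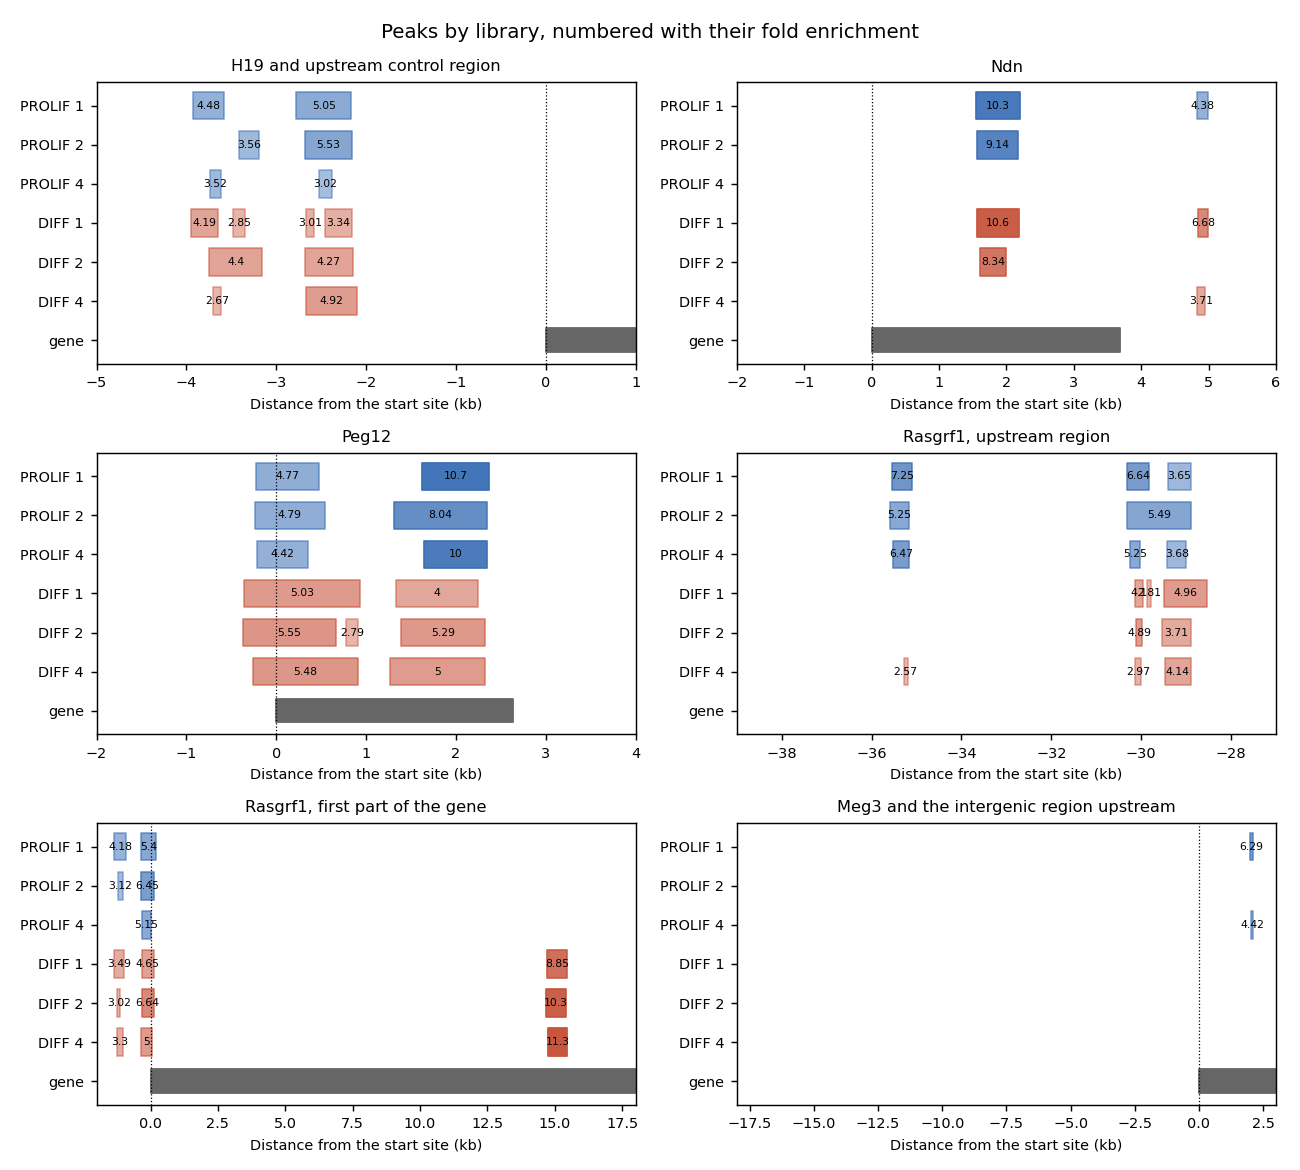
Peaks (bars, numbered with their fold enrichment, darker where higher) of the 3 PROLIF libraries in blue and the 3 DIFF libraries in red, by distance from a start site in kb, in 6 stretches, with the gene body in grey. Ndn lacks its peak in both libraries of replicate 4, Peg12 has folds of 8.04 to 10.7 in PROLIF and 4 to 5.29 in DIFF over the later part of the gene, and Rasgrf1 has a peak 14678 to 15463 bp into the gene in DIFF libraries.

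Promoters were described next, a promoter peak being one within 3 kb of any annotated start of the gene. The strongest such peak gave the value, so libraries can differ in which peak was read. A promoter peak in all 6 libraries was found at 27 of the 35 protein-coding members (77.1%), against 64.4% of all protein-coding genes, and at 4 of the 7 noncoding members (57.1%), against 30.9% of noncoding genes. Those 4 were H19, Airn, Kcnq1ot1 and Peg13. Their promoter peaks lie in their control windows, so they repeat peaks already counted there, and the 7 genes are few. In total 38 members had a promoter peak in at least 1 library, and Rian, Mirg, Rtl1 and Slc22a18 had none. Among the 31 members with a peak in every library the median percentile was 81.5, 80.3 and 75.7 in PROLIF and 78, 80.3 and 86.5 in DIFF. The same median over all 17198 such genes was higher in each library, from 81.9 to 89.1.

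**Figure D3:**
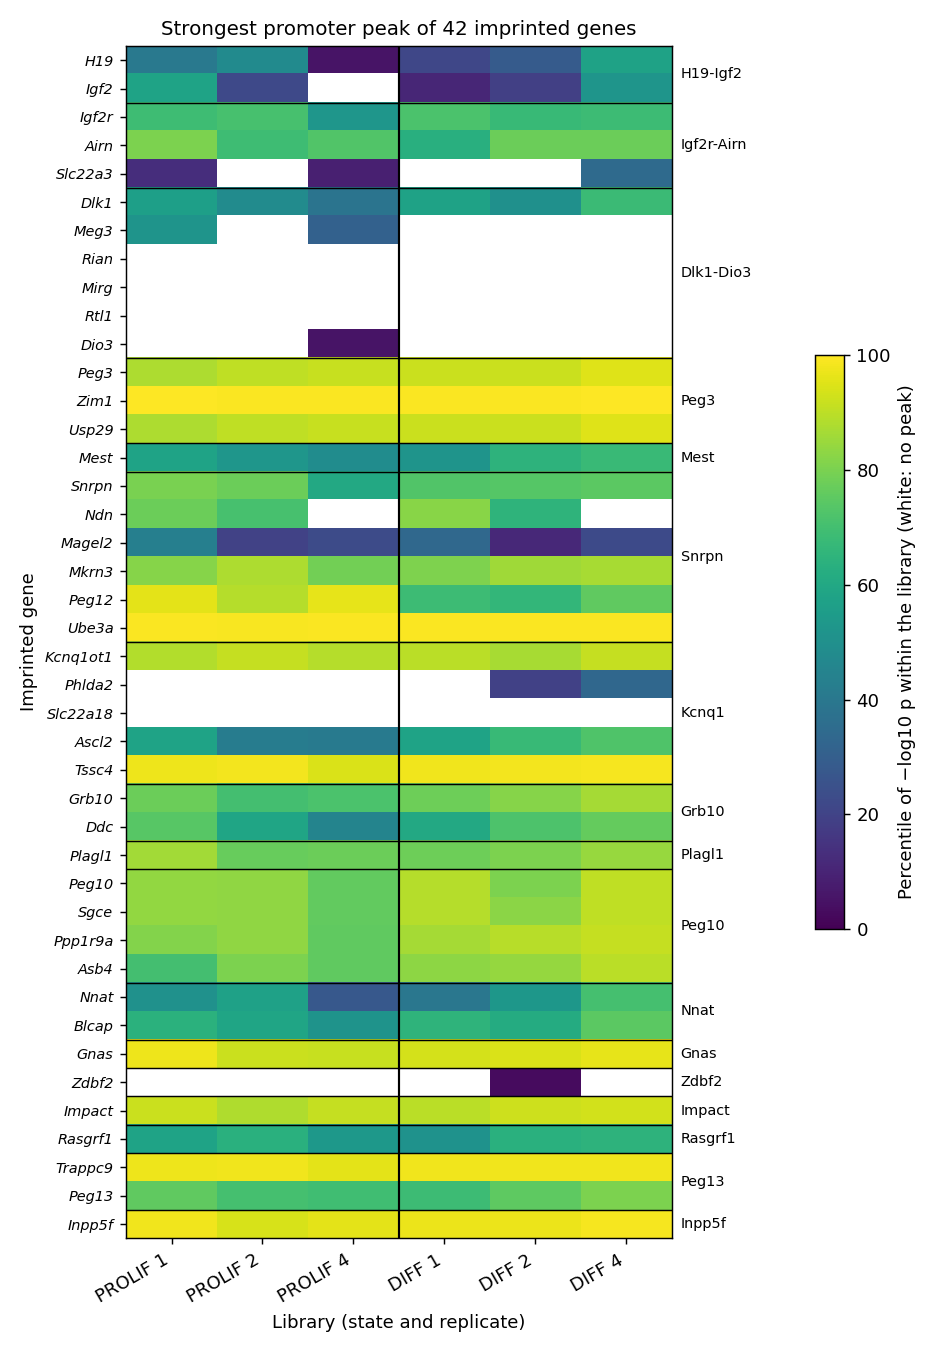
Percentile of the strongest promoter peak (colour, rank by −log10 p within the library, white for no peak) of the 42 imprinted genes (rows, grouped by cluster) in 3 PROLIF and 3 DIFF libraries (columns). Zim1 and Ube3a lie above 99 in every library, and Rian, Mirg, Rtl1 and Slc22a18 are white throughout.

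A few members in several clusters had high-ranking promoter peaks throughout. Zim1, a zinc finger gene of the Peg3 cluster, ranked from 99.6 to 99.8, and Ube3a, the ubiquitin ligase that is imprinted in neurons, from 99.1 to 99.6. Tssc4, a spliceosome assembly factor, ranked from 94.3 to 98.6, Trappc9, a subunit of a trafficking complex, from 95.9 to 98, and Inpp5f, an inositol phosphatase, from 94.1 to 98.5. Gnas, which encodes the stimulatory G protein alpha subunit, ranked from 91.6 to 97.3, and Impact, a regulator of the translation stress kinase GCN2, from 88.2 to 93.3. All of these lay above the median of all genes with a peak in every library.

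In the H19-Igf2 cluster, H19 is a noncoding RNA that limits growth and Igf2 the growth factor that shares its enhancers. The H19 promoter window ranked 40.3, 48 and 5.14 in PROLIF and 21.3, 28.8 and 57.5 in DIFF. That peak lies 2213 to 2557 bp upstream of the start, inside the control region, and 0 libraries had a peak within 1 kb of the H19 start. Igf2 ranked 58, 21.9 and 0 in PROLIF and 10.6, 19 and 52.3 in DIFF, with a peak in 5 libraries and folds from 3.03 to 6.74. Neither gene ranked above 58 in any library, values varied widely between libraries, and the states overlapped at both.

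In the Igf2r-Airn cluster, the receptor gene Igf2r, which clears IGF2, ranked 68.9, 70.9 and 52.6 in PROLIF and 71.8, 67.2 and 68.5 in DIFF. The value of PROLIF replicate 2 came from a peak inside the gene. Over the 5′ end of Igf2r (chr17:12768925-12770008) that library ranked 46.8. The antisense RNA Airn ranked 80.1, 68.9 and 73 in PROLIF and 63, 77.4 and 77.7 in DIFF. Slc22a3, an organic cation transporter silenced in cis by Airn in placenta, had only weak promoter peaks, at 12.9, 0 and 8.8 in PROLIF and 0, 0 and 34.7 in DIFF. Open start sites were thus measured at both members of the overlapping sense and antisense pair, without regard to allele.

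In the Dlk1-Dio3 cluster 3 of the 6 members had no promoter peak. Dlk1, a membrane protein related to Notch ligands, ranked 56.3, 48.1 and 38.3 in PROLIF and 57.7, 50.2 and 68.2 in DIFF. The value of DIFF replicate 2 came from an upstream peak, and at the start (chr12:109452930-109453492) that library ranked 9.69. Meg3, the first of the maternally expressed noncoding RNAs, ranked 51.7, 0 and 31 in PROLIF and was at 0 in the 3 DIFF libraries. Dio3, a thyroid hormone deiodinase, had a single peak at percentile 5.26 in PROLIF replicate 4. Rian and Mirg, which host small nucleolar RNAs and miRNAs, and Rtl1, a retrotransposon-derived gene, had no promoter peak, and the whole window of Mirg was without a peak in every library.

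Dlk1 was the one member of its cluster with regions in all 6 libraries. A region 2278 bp upstream of the Dlk1 start ranked 29.1, 22.5 and 1.25 in PROLIF and 51.4, 50.2 and 64.5 in DIFF. These states did not overlap, and the exact permutation p of 0.1 only restates that. Its folds ran from 2.69 to 3.68 in PROLIF and from 4.28 to 4.98 in DIFF. The Meg3 peak was called in PROLIF libraries alone, in 2 of the 3.

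The Snrpn cluster is the one whose paternal copy is lost in Prader-Willi syndrome. Snrpn, a spliceosomal protein gene, ranked 79.8, 77.7 and 60.2 in PROLIF and 72.8, 73.6 and 74.9 in DIFF. The value of PROLIF replicate 1 came from a peak at another start (chr7:60139927-60140391), and in the Snrpn control window that library ranked 76. Mkrn3, a ring finger gene, ranked from 78.9 to 87.6, and Magel2, a MAGE family gene, from 11.7 to 43.2. The states overlapped at these 3 genes.

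Ndn (ENSMUSG00000033585.5, chromosome 7, 62346569 to 62350262) is a single-exon MAGE family gene that restrains the cell cycle in neurons. Its calls followed the replicate number and not the state, though same-numbered libraries share only a number in the sources used here. Its promoter window ranked 77.4 and 70.9 in PROLIF replicates 1 and 2 and 82.3 and 65.2 in DIFF replicates 1 and 2, and it had no peak in replicate 4 of either state. The peak lies 1659 to 1745 bp downstream of the start (summits, chr7:62348123-62348769), with folds of 10.3, 9.14, 10.6 and 8.34, and 0 libraries had a peak within 1 kb of the start. DIFF replicate 4, where it was missing, is the library with the longest list, whose folds reach down to 2.18. Over the genome, 225 of the 120143 regions were missing in both libraries of replicate 4 and present in the other 4, with a median lowest fold of 3.24, of which 1, Ndn itself, had a lowest fold as high as that of Ndn. Regions missing from both libraries of 1 number were not particular to Ndn. For replicate 2, 477 were missing in both libraries and present in the other 4, and 5 of those had a lowest fold as high as that of Ndn. For replicate 1 the numbers were 150 and 0. Regions missing from 2 libraries with different numbers were not counted. A pattern by replicate can therefore not be told from any other absence in 2 libraries.

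Peg12 (ENSMUSG00000070526.2, chromosome 7, 62461871 to 62464510, minus strand), a single-exon gene of the Frat family of GSK3 inhibitors, was the only member whose promoter percentile was higher in every PROLIF than in every DIFF library. It ranked 95.9, 89 and 96.2 in PROLIF and 68.5, 66.1 and 75.5 in DIFF, or 93.7 ± 4.07 against 70 ± 4.91 (SD, n = 3 each, exact permutation p = 0.1). The strongest PROLIF peak lies over the later part of the gene, 2110 to 2161 bp downstream of the start, and the strongest DIFF peak at the start itself. Taken region by region, the later one (chr7:62462137-62463240) had folds of 10.7, 8.04 and 10 in PROLIF and 4, 5.29 and 5 in DIFF. The one at the start (chr7:62463573-62464880) ranked 72.1, 67.9 and 66.2 in PROLIF and 68.5, 66.1 and 75.5 in DIFF, where the states overlapped. With promoters of 1 kb, Peg12 no longer separated the states.

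In the Peg3 cluster, Peg3, a zinc finger gene that affects growth and maternal care, and the ubiquitin peptidase gene Usp29 share a divergent promoter, so both were read from the same peak. It ranked 87.7, 90.3 and 91.7 in PROLIF and 92, 91.8 and 95.3 in DIFF. The states did not overlap, by a margin of 0.0379 percentile points between PROLIF replicate 4 and DIFF replicate 2. In the separate region over the shared start (chr7:6729994-6730625) they did overlap. The ranked peak is 1545 to 2385 bp wide, with its summit 1668 to 1839 bp downstream of the Peg3 start. Its folds were moderate, from 5.02 to 5.78. The stretch around its best summit carries 1 YY1 sequence, 1 AP-1 heptamer and 1 SOX sequence (ACAAAG), in capitals, and YY1 is the factor known to bind this control region.
Peg3 first intron, chr7:6728581-6728781, minus strand: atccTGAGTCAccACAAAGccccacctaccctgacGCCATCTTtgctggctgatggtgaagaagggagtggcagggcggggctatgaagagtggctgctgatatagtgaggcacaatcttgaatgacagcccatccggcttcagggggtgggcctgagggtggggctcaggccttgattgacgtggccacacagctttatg

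In the Kcnq1 cluster, Kcnq1ot1 ranked from 87.1 to 91.4. Phlda2, a growth-limiting gene of the placenta, was at 0 in PROLIF and at 0, 19.4 and 33.3 in DIFF. Ascl2, a transcription factor of trophoblast and intestinal stem cells, ranked 58.2, 42.1 and 41 in PROLIF and 58, 67.4 and 72.6 in DIFF, and Slc22a18, a transporter gene, had no promoter peak. A region beyond the 3′ end of Kcnq1ot1 (chr7:143197700-143198697) ranked 61.6, 70.2 and 62.9 in PROLIF and 87.6, 84.6 and 88 in DIFF, with no overlap (exact permutation p = 0.1).

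Grb10 encodes an adaptor that restrains insulin and growth factor receptors and has separate starts for its maternal and paternal transcripts. Its promoter ranked 77.5, 70 and 71.8 in PROLIF and 78, 82 and 86.5 in DIFF, without overlap, but by different peaks. In PROLIF the strongest lay at the internal start, and in DIFF it lay 2874 to 2899 bp upstream of another start (chr11:11973309-11973831), where the folds were 8.71, 8.38 and 8.58 in PROLIF and 9.19, 11.8 and 11.5 in DIFF. With a q of 0.01 for peaks, or with promoters of 1 kb, the Grb10 promoter no longer separated the states. Near the 3′ end of the gene (chr11:11932160-11932749) the order was turned, with percentiles of 79.5, 72 and 75.2 in PROLIF and 18.9, 46.9 and 20 in DIFF. Ddc, the dopa decarboxylase gene beside it, ranked from 45.1 to 76.5, with overlapping states.

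In the Peg10 cluster, Peg10, a retrotransposon-derived gene, and Sgce, encoding epsilon-sarcoglycan, share a divergent promoter. Their strongest promoter peaks ranked from 76.1 to 90.6. The summits lay 1719 to 1887 bp downstream of the nearest Peg10 start, except for Sgce in DIFF replicate 2, which was read from another peak. The region over the shared start (chr6:4746821-4747501) ranked 40.7, 38.7 and 33.3 in PROLIF and 46.4, 32.8 and 54.5 in DIFF. Ppp1r9a, encoding the actin-binding protein neurabin, ranked 81.5, 83.4 and 75.7 in PROLIF and 86.5, 89.2 and 91.1 in DIFF. Asb4, an ankyrin repeat gene, ranked 70.3, 80.3 and 75.4 in PROLIF and 83.1, 84.2 and 89.6 in DIFF. Neither Ppp1r9a nor Asb4 overlapped between states (exact permutation p = 0.1 each). For Asb4, PROLIF replicate 1 was read from a separate peak nearer the start. The region of that peak (chr6:5382678-5383215) ranked 70.3, 50.8 and 59 in PROLIF and 64.8, 69.6 and 73.8 in DIFF, with overlap. The upstream region (chr6:5379564-5381030) ranked 68.4, 80.3 and 75.4 in PROLIF and 83.1, 84.2 and 89.6 in DIFF, without overlap. With promoters of 1 kb, or with peaks covering 50% or with the summit in the window, Asb4 no longer separated the states. Of the 15 regions of this cluster with a peak in all 6 libraries, 4 were higher in every DIFF and 0 in every PROLIF library, beside 21.1% and 11.7% of all such regions.

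The remaining members gave overlapping states, with Trappc9 as the exception. Mest, a hydrolase-fold gene, ranked from 48.8 to 67.9, Plagl1 from 76.7 to 86, and Peg13, a noncoding RNA inside Trappc9, from 68.4 to 80.1. Nnat and Blcap, the gene whose intron holds Nnat, ranked from 27.7 to 70.4 and from 51.2 to 74.9. Rasgrf1 ranked from 51.1 to 64.5. Zdbf2, a zinc finger gene, had 1 peak, at percentile 2.8 in DIFF replicate 2. Trappc9 ranked 97.3, 97.7 and 95.9 in PROLIF and 97.8, 97.9 and 98 in DIFF, without overlap but by 0.0443 points at the nearest.

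Whether mitogen withdrawal moved the promoters as a set was read from counts. Promoter peaks in every PROLIF and no DIFF library were found at 0 of 38 members (background 0.421% of genes with a promoter peak), and in every DIFF and no PROLIF library at 0 of 38 (background 0.822%). The percentile was higher in every DIFF than in every PROLIF library at 6 of 38 members (15.8%, background 23%), which were Asb4, Grb10, Peg3, Ppp1r9a, Trappc9 and Usp29. It was higher in every PROLIF library at 1 of 38 (2.63%, background 5.65%), Peg12. Peg3 and Usp29 were read from the same peak, so they are not separate calls. These counts are small and were not tested against the shares of all genes, so no difference from all genes is read from them.

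Of all genes whose states did not overlap, 80.3% were higher in DIFF, and 68.3% with lists of equal length. Without PROLIF replicate 1 the number of members higher in DIFF was 13, while the share of all genes rose to 41.9%. Without DIFF replicate 1 or DIFF replicate 2 it was 10, with 31.9% and 33% of all genes. With promoters of 1 kb 3 members were higher in DIFF, Ppp1r9a, Sgce and Trappc9.

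Beyond promoters, 156 of the 261 member regions lay over 3 kb from any start. Peaks in all 6 libraries were found in 94 of the 261 regions (36%, against 33.4% of all regions), and peaks in 1 library alone in 73 (28%, against 29.7%). Of the 94, 19 ranked higher in every DIFF than in every PROLIF library (20.2%, background 21.1%) and 8 in every PROLIF than in every DIFF library (8.51%, background 11.7%). The 67 others overlapped between states.

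At the 3′ part of Igf2r a region over an annotated exon (chr17:12688456-12689347) ranked 38.7, 42.5 and 49.1 in PROLIF and 77.2, 85.7 and 83.8 in DIFF, a mean of 43.4 ± 5.23 against 82.3 ± 4.43 (SD, n = 3 each, exact permutation p = 0.1). An intron of Slc22a3 (chr17:12428198-12428784) had the opposite order, with 95.7, 90.2 and 92.8 in PROLIF and 76.5, 70.5 and 77.2 in DIFF. At the most upstream start of Gnas (chr2:174283630-174284601) the percentiles were 65.1, 70 and 51.6 in PROLIF and 27.7, 24.4 and 49.6 in DIFF. None of these 3 regions overlapped between states, and of the Trappc9 intron regions with a peak in all 6 libraries, 2 were higher in DIFF and 2 in PROLIF.

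**Figure D4:**
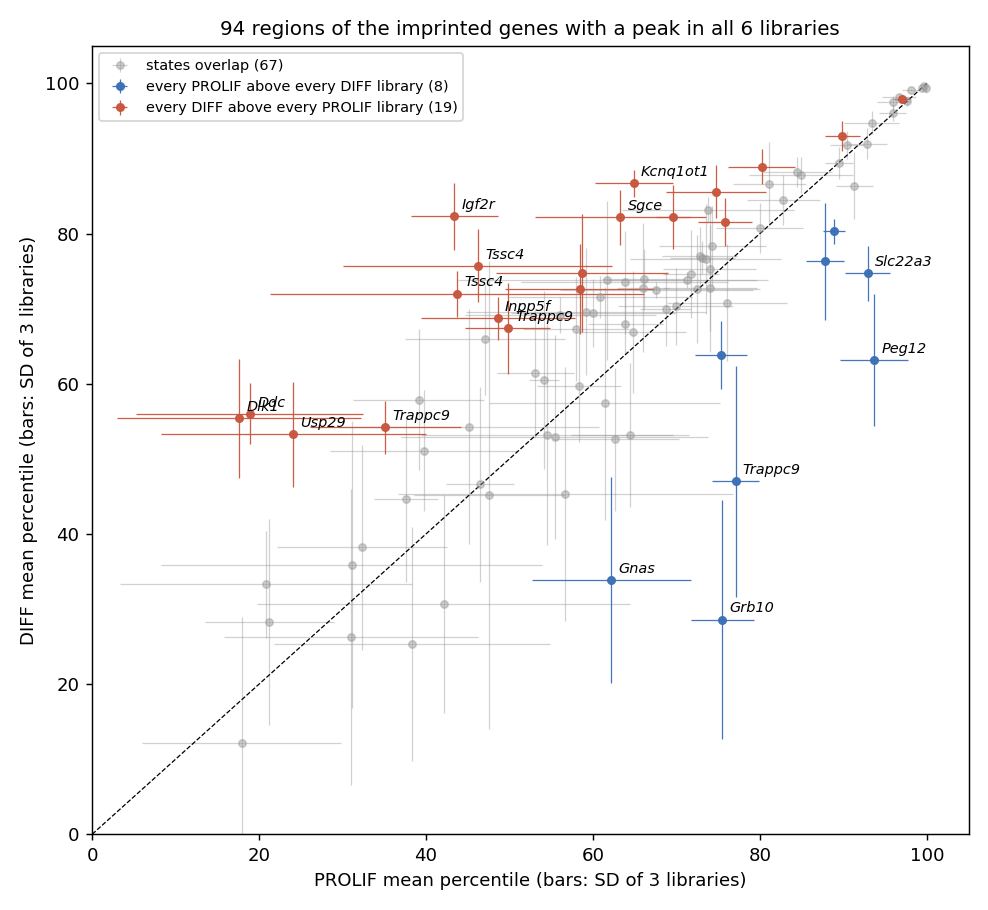
Mean percentile in PROLIF (horizontal axis) and DIFF (vertical axis) of the 94 regions of imprinted genes with a peak in all 6 libraries, with bars for the SD of 3 libraries. Red points (19) had every DIFF above every PROLIF library, blue points (8) the reverse and grey points (67) overlapping states, and Grb10, Gnas, Trappc9 and Peg12 lie farthest below the dashed line of equality and Igf2r, Dlk1 and Ddc farthest above.

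State-only regions were few. PROLIF-only regions, with a peak in every PROLIF and no DIFF library, numbered 8 of 261 (3.07%, background 1.78%), and DIFF-only regions 9 (3.45%, background 3.47%). Without DIFF replicate 1 the DIFF-only regions numbered 18. All but 2 of the 17 lay over 3 kb from a start. Ppp1r9a held 3 PROLIF-only and 1 DIFF-only region, all intronic, of its 16 regions.

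The strongest PROLIF-only regions were a pair in introns of Ppp1r9a. The one from 5093243 to 5094077 on chromosome 6 had folds of 10.3, 8.12 and 9.36, and the one from 4945392 to 4945685 folds of 9.06, 7.61 and 8.32. Another PROLIF-only region lay in the introns where Igf2r and Airn overlap (chr17:12758021-12758289), with folds of 6.29, 6.34 and 5.98. The strongest DIFF-only region overlapped an exon of Rasgrf1 (chr9:89924587-89925372), 14675 bp from the nearest start, with folds of 8.85, 10.3 and 11.3 and percentiles of 75.4, 74 and 85.6. The Rasgrf1 promoter overlapped between states.

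The other PROLIF-only regions had lower folds. In Ddc, folds were 3.16, 3.23 and 3.68 over an exon at a start (chr11:11822655-11823005) and 4.09, 4.86 and 3.15 in an intron (chr11:11872315-11872912). An intron of Trappc9 (chr15:72607159-72607394) had folds of 7.55, 5.08 and 4.16. The remaining ones lay in introns of Ppp1r9a (chr6:4980130-4980444), with folds of 3.6, 3.91 and 3.23, and of Usp29 (chr7:6913608-6913993), with folds of 4.42, 2.75 and 3.25. Several of these folds lie near the reach of the lists.

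Among the other DIFF-only regions, an intron of Usp29 (chr7:6812300-6813186) had folds of 4.88, 7.77 and 7.47 and percentiles of 55.6, 72.4 and 80.7. Another Usp29 intron region (chr7:6881555-6881793) had folds of 3.88, 5.53 and 4.28. Usp29 thus held DIFF-only and PROLIF-only intron regions. In Trappc9 introns the folds were 3.67, 4.55 and 3.99 (chr15:72871743-72872097) and 3.88, 5.56 and 3.42 (chr15:73004016-73004335). An intron of Ppp1r9a (chr6:5037293-5037621) had folds of 4.1, 5.56 and 3.57, and an intron of Airn (chr17:12846598-12846766) folds of 3.45, 4.04 and 3.85. Both genes also held a PROLIF-only region. A region inside Kcnq1ot1 (chr7:143210836-143211095), annotated as exon but 70228 bp from the nearest start, had folds of 4.1, 5.31 and 4.14. One near Zim1 and Peg3, outside both genes (chr7:6701577-6701771), had folds of 2.88, 3.18 and 2.25.

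The 17 state-only regions were searched for 4 motifs within 100 bp of the best summit. The AP-1 heptamer TGANTCA, bound by FOS and JUN dimers, was found in 2 of the 8 PROLIF-only regions (25%) and 0 of the 9 DIFF-only regions, beside 31.3% of all PROLIF-only, 4.73% of all DIFF-only and 8.21% of all regions of the genome. The E-box CAGCTG was found in 3 of 8 and 1 of 9, beside 33.5% and 15.4%. The SOX sequence ACAAAG was found in 0 of 8 and 2 of 9, beside 26% and 21.6%, and the NFI palindrome (TTGGC and GCCAA with 5 bases between them) in 0 of either. The 2 PROLIF-only stretches with an AP-1 heptamer and the strongest DIFF-only stretch, which holds none of the 4, follow, with motif letters in capitals.
Igf2r-Airn intron, chr17:12758035-12758235, minus strand: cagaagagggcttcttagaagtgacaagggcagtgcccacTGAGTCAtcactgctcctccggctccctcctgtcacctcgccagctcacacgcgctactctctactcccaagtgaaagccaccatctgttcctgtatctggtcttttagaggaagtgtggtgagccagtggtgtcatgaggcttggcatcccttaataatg
Trappc9 intron, chr15:72607163-72607363, minus strand: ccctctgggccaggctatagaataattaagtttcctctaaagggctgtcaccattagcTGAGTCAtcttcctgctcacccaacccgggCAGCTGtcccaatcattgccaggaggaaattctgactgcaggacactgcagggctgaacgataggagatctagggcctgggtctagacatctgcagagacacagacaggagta
Rasgrf1 DIFF-only region, chr9:89924958-89925158, plus strand: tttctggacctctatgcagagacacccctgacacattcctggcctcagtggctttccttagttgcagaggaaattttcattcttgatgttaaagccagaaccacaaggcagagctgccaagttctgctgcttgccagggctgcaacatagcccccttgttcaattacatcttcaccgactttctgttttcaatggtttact

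Further imprinted genes outside the 42 members were read by the same rule. Of 33 such genes found in the annotation, 21 had a promoter peak in all 6 libraries and 7 in none, namely Klf14, Tfpi2, Pon3, Slc38a4, Slc22a2, Zim3 and Gpr1. The percentile was higher in every DIFF library at 6 of the 26 with any promoter peak (23.1%, background 23%), Osbpl5, Mcts2, Commd1, Zrsr1, Begain and Phactr2, and in every PROLIF library at 0 (background 5.65%). Of 14 genes that write or keep imprints, 12 had a promoter peak in all 6 libraries, among them Zfp57 at 64.1 to 80.6, Trim28 at 94.9 to 98.3 and Dnmt1 at 82.4 to 94.7. Setdb1, a histone methyltransferase recruited by TRIM28, and Uhrf1, the cofactor of DNMT1, were the 2 of 14 (14.3%, background 23%) that were higher in every DIFF library. The germline gene Dppa3 had a peak in 3 libraries, at most at percentile 28.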

How the data were processed

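ATAC-seq peak lists of 6 Srr2 del/del libraries were used, with state and replicate number as the labels give them. The authors clipped adapters with cutadapt and trimmed low-quality bases with Trimmomatic; they did the mapping with Bowtie2 to GRCm38 (mm10), duplicate marking with Picard, and narrow peak calling in each library with MACS2 (no model, FDR 0.05). Versions are not given in the sources used here. Each deposited line holds a score (10 times the −log10 q), a fold enrichment, which is a ratio to the local background, and −log10 p and q deposited by the authors. These depend on depth, so peaks were ranked within each list, as a percentile of −log10 p, and 0 stood for no peak. Read totals were not used here.

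Genes and starts came from GENCODE M21, limited to protein-coding genes and the noncoding classes of the members. Members, control windows, motifs and lists were chosen with earlier results of these data known, and the comparison of region percentiles was added after the data were seen. Every member was described, with values in each library for members whose states did not overlap and for state-only regions, and mostly by range for members open in every library, which the rule had also set for values in each. Other single regions named were chosen after their values were seen. Peaks overlapping by at least 1 bp were merged. A call of higher in one state needed no overlap between the 3 libraries of each, with a two-sided exact permutation test (smallest p 0.1). Such a call always gives that smallest p, so the p is no separate support for it. The series calls its replicates biological without naming separate animals, so p measures the spread between these libraries. On simulated data, 200 of 200 genes raised in DIFF (among 17198) and 200 of 200 planted DIFF-only regions (among 31477) were recovered. This checks only that the calling works on planted shifts. It does not measure how often weak differences are missed or false ones are called. Sequences came from RefSeq GRCm38.p6, and none over an untranslated region was printed. Python 3.11.15, numpy 2.4.6, pandas 2.3.3 and pysam 0.24.0 were used.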

Additional observations from a re-analysis of the deposited data

How the results depend on the processing

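The counts were recomputed with q of 0.01, lists of equal length (60006 peaks), the strongest 20000 peaks, peaks covering 50% of a region or with the summit in the window, promoters of 1 kb, ranks by fold, gene bodies alone, the replicate block and each library left out; all of these for the region percentiles were chosen after seeing the data. Among the strongest 20000 peaks the counts were 16 for promoters open in all 6 libraries, 1 for PROLIF-only promoters (Peg12), 3 and 2 for promoters higher in DIFF and in PROLIF, 5 for control windows, 5 and 3 for PROLIF-only and DIFF-only regions, and 1 and 3 for regions higher in DIFF and in PROLIF, since each list is then shorter. With promoters of 1 kb, 3 members were higher in DIFF and 0 in PROLIF. At q of 0.01, 4 were higher in DIFF, without Grb10 and Trappc9. By rank of fold 5 were, with Ascl2 and Sgce in place of Peg3, Trappc9 and Usp29. With lists of equal length 2 promoters were higher in PROLIF (Peg12 and Zim1), and 5 were higher in DIFF, with Ascl2 and Blcap in place of Peg3, Trappc9 and Usp29. Requiring 50% cover left 9 and 5 regions higher in DIFF and in PROLIF.

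The sources used here do not tie replicate numbers across states, so same-numbered libraries share only a number. Over 39088 regions their deviations correlated at 0.0122 to 0.153 and those of different numbers at -0.113 to 0.0614, and not every library correlated best with its own number. With the replicate block there was 1 PROLIF-only promoter (Meg3), 1 DIFF-only promoter (Phlda2), 2 promoters higher in PROLIF, 15 PROLIF-only and 25 DIFF-only regions and 29 regions higher in DIFF; the other calls moved by less than 1.5 times. Leaving out 1 library gave 0 to 1 PROLIF-only promoters (1 without PROLIF replicate 2), 0 to 1 DIFF-only promoters (1 without DIFF replicate 1), 6 to 13 and 1 to 2 promoters higher in DIFF and in PROLIF, 8 to 11 PROLIF-only and 9 to 18 DIFF-only regions, and 20 to 37 and 8 to 15 regions higher in DIFF and in PROLIF. The largest of these came without PROLIF replicate 1 (37 regions, 13 promoters) and without DIFF replicate 4 (15 regions). The cause of these shifts was not tested. Read totals were not used, so how far depth limits the weaker peaks was not tested.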
